A study of Homo sapiens with 14 samples.

Results

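Transcripts of 9 enzymes and enzyme subunits of the tricarboxylic acid cycle were followed in SCC23 cells, an established line of head and neck squamous cell carcinoma (HNSCC). They are CS, IDH3A, IDH3B, IDH3G, OGDH, DLST, SUCLA2, FH, and MDH2, and they were taken by gene name as 9 of the 59471 gene names in the deposited counts. All 9 had counts in all 14 libraries, between 657 and 22329 each, and all 9 passed the filter on low counts in each comparison. The clearest difference was that of IDH3B, the beta subunit of the NAD-dependent isocitrate dehydrogenase. It was 2.19-fold higher in KMT2D-KO than in KMT2D-WT cells kept in glucose and 2.92-fold higher in cells deprived of it. OGDH had the lowest estimates of the 9 in both of these comparisons and passed the test in neither.

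The cycle runs in the mitochondrial matrix. It oxidizes the acetyl group that citrate synthase joins to oxaloacetate, releases carbon dioxide at the isocitrate and oxoglutarate dehydrogenase steps, and hands electrons to the respiratory chain. Pyruvate from glycolysis feeds it through pyruvate dehydrogenase, while glutamine, which tumor cells use heavily, enters at oxoglutarate. The NAD-dependent isocitrate dehydrogenase is built of a catalytic alpha subunit (IDH3A) together with a beta subunit (IDH3B) and a gamma subunit (IDH3G).

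KMT2D is a histone methyltransferase that is often mutated in HNSCC, and the study asked what its loss changes in these cells, with and without glucose. KMT2D-KO cells are the lines KO1 and KO2, made with Cas9 and a different KMT2D guide for each line. The paper reports that it checked the mutations by sequencing and the knockout by western blot. For KMT2D-WT cells the methods give a LacZ guide. Both were grown from sorted GFP-positive cells, and no cloning of single cells is described. The cells were either kept in high-glucose medium (+Glc) or deprived of glucose for 6 h (−Glc), and polyA RNA was sequenced. Each glucose condition holds 3 KMT2D-WT and 4 KMT2D-KO libraries. Experiment 1 has 1 KMT2D-WT library and 1 of each line, and experiment 2 has 2 KMT2D-WT libraries and 1 of each line. The labels do not say whether libraries of an experiment came from separate cultures, so p-values measure the spread between these libraries.

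Levels are given in CPM, counts scaled to a common library size by TMM over the 14 libraries. Total counts ranged from 15669154 to 62968057 per library. Per the file headers, featureCounts was run in paired mode for the 4 libraries of experiment 2 with glucose, without the option that counts a pair once, and in single mode for the other 10. Of the counts from 1 to 10, 67.4% to 70.6% were even in those 4 and 37.4% to 42.7% in the others. KMT2D itself, the targeted gene, was at 266 to 279 CPM in KMT2D-WT cells with glucose, at 182 and 184 CPM in line KO1, and at 323 and 373 CPM in line KO2. In deprived cells it was at 231 to 239 CPM in KMT2D-WT cells, at 19.9 CPM in the KO1 library of experiment 1, and at 145 to 190.2 CPM in the other 3 KMT2D-KO libraries. The deprived KO1 library of experiment 1 thus stood apart from the rest. The deprived libraries labelled KO1 and KO2 of experiment 2 were a very close pair, with a chi-square of 1.78 per gene between them against 74.4 for the lines of experiment 1. Which line each of them holds is therefore in doubt, and they are called by their labels. The 2 deprived KMT2D-WT libraries of experiment 2 were likewise close, at 1.71 per gene. Of the 7 squamous markers, KRT5, KRT14, KRT17, TP63, CDH1, and DSG3 were present in every library (lowest value 1.505 CPM) and KRT6A did not exceed 1.13 CPM. Of 6 markers of other cell types, PTPRC (leukocytes) and PECAM1 (endothelium) did not exceed 0.255 CPM, ALB (hepatocytes) 0.426 CPM, and MLANA (melanocytes) 2.29 CPM. COL1A1, a collagen of fibroblasts, reached 15.98 CPM and was higher in KMT2D-KO cells with and without glucose (1.26 and 1.33 on the log2 scale, edgeR adjusted p = 9.06e-04 and 3.98e-04). COL1A2 reached 5.34 CPM and was higher with glucose (2.72, edgeR adjusted p = 0.00625). Summed, the 6 markers were at 7.51 to 8.61 CPM in KMT2D-WT and 12.6 to 22.8 CPM in KMT2D-KO libraries with glucose, and at 3.94 to 5.80 and 7.53 to 14.2 CPM without. Their part in the results was not tested.

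Genes were called at a Benjamini-Hochberg adjusted p-value under 0.05 in edgeR's quasi-likelihood test over all genes tested, with experiment as a covariate. In cells kept in glucose, 1 of the 9 cycle genes was higher in KMT2D-KO cells (IDH3B), against 13% of all 20423 genes tested, and 0 were lower, against 11.7% of all genes. At an unadjusted p-value under 0.05 edgeR placed 4 of the 9 higher (CS, IDH3A, IDH3B, and IDH3G) and 1 lower (OGDH). The share of all genes at an unadjusted p-value under 0.05 was not taken, here or below, so such counts have no background beside them. DESeq2 with the same model called 1 higher and 0 lower after adjustment, and 5732 of all 20423 genes, 53.8% of them higher. The median log2 fold change of the 9 was 0.17, beside 0.02 over all genes tested.

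In glucose-deprived cells 8 of the 9 were higher in KMT2D-KO cells, all but OGDH, against 25.9% of the 16782 genes tested. Of the 9, 0 were lower (24.9% of all genes were), and the same counts came from edgeR at an unadjusted p-value under 0.05 and from DESeq2 with the same model. DESeq2 called 9070 of the 16782 genes, 55.2% of them higher. The median log2 fold change of the 9 in edgeR was 0.29, beside 0.00 over all genes. Most of the 8 were small steps, and they rest on the scaling. Without TMM factors, that is with library totals alone, the median over all genes shifted from 0.00 to −0.25 and the share of higher genes among all called genes from 51.0% to 30.2%. With this scaling 2 members were higher (CS and IDH3B) and 1 was lower (OGDH), beside 9021 of the 16782 genes called in either direction. In TPM, averaged within experiments, the difference in deprived cells turned negative for 5 of the 8: IDH3A (−0.14), DLST (−0.15), SUCLA2 (−0.14), FH (−0.14), and MDH2 (−0.26). It stayed positive for IDH3B (1.11), CS (0.34), and IDH3G (0.32). From CPM to TPM the difference fell by the same amount for all 9, for IDH3B from 1.55 and for OGDH from −0.50 to −0.94. TPM is thus a further scaling of whole libraries and no separate check of single genes. Left out together, the close pair of experiment 2 took every call with it: 0 of the 9 and 0 of 16946 genes passed edgeR's test, while the estimates for the 8 genes stayed positive, between 0.12 and 1.53. With each close pair of deprived libraries summed, edgeR called 2 of the 9 and 2785 of 16867 genes. The adjusted p-values of deprived cells here and below treat the libraries of each close pair as separate.

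**Figure D1:**
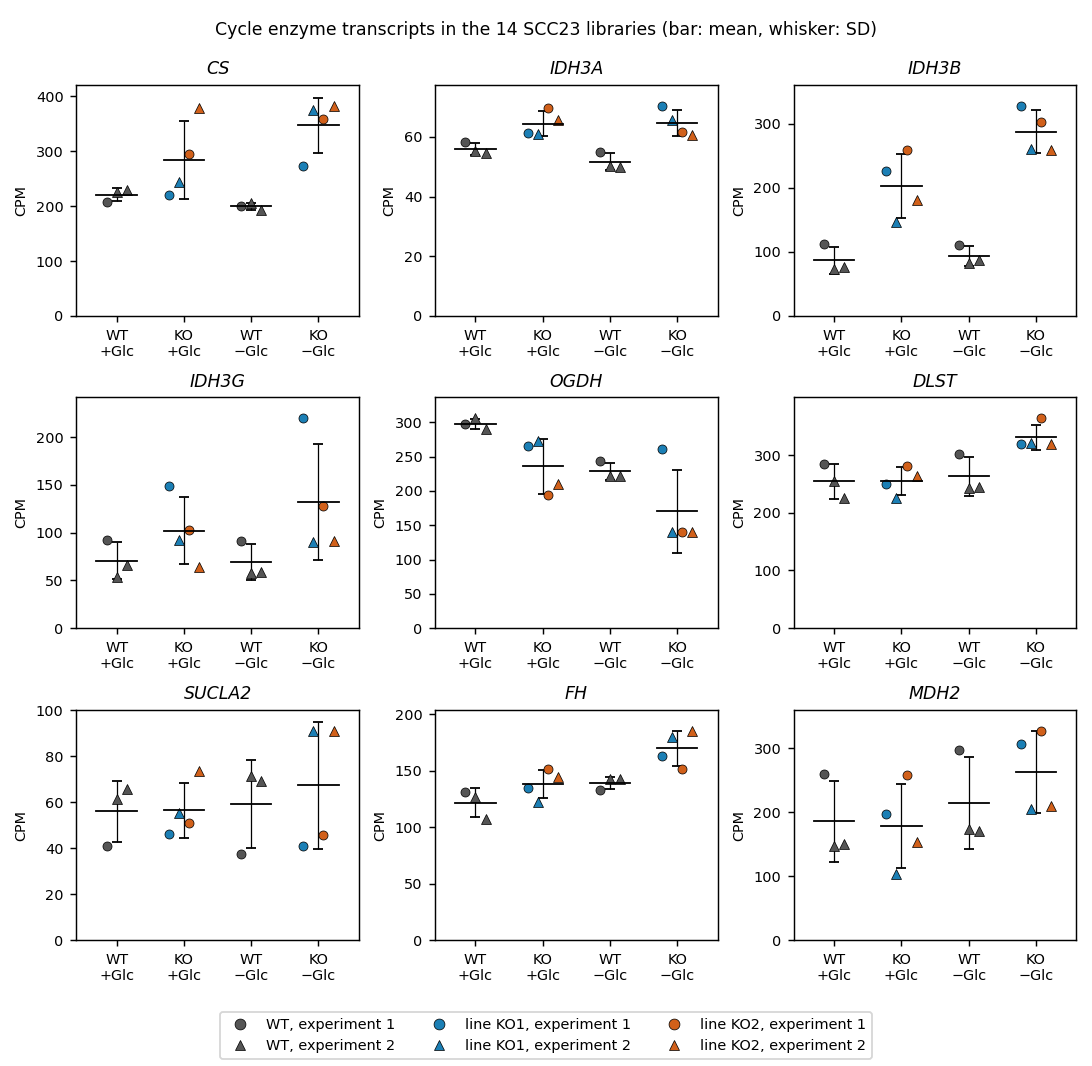
CPM of the 9 cycle genes in each of the 14 libraries, by genotype and glucose (+Glc, kept in glucose, and −Glc, deprived for 6 h). Colors give the line, symbols the experiment, bars the group mean, and whiskers the SD (3 KMT2D-WT and 4 KMT2D-KO libraries per condition). The KMT2D-KO libraries of IDH3B lie above all KMT2D-WT libraries in both conditions, and the deprived KO1 library of experiment 1 lies apart for OGDH at 261 CPM.

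The isocitrate dehydrogenase subunits. IDH3B lies on chromosome 20 of GRCh38 (2658395 to 2664219, minus strand) and shares no exonic base with another gene. In KMT2D-WT cells with glucose IDH3B was at 111, 73.3, and 76.3 CPM. In KMT2D-KO cells with glucose it was at 225 and 259 CPM in the KO1 and KO2 libraries of experiment 1 and at 146 and 182 CPM in those of experiment 2. All 4 lay above all 3 KMT2D-WT libraries, and experiment 1 was higher than experiment 2 in both genotypes. On the log2 scale the change was 1.13 (SE 0.10, edgeR adjusted p = 1.26e-04). In deprived cells IDH3B was at 111, 82.8, and 87.1 CPM in KMT2D-WT cells and at 327, 303, 259.9, and 259 CPM in the KO1 and KO2 libraries of experiment 1 and those labelled KO1 and KO2 of experiment 2. The groups again did not overlap, and the log2 fold change was 1.55 (SE 0.07, adjusted p = 3.96e-05 in edgeR). Within single experiments it was 1.117 in both with glucose, and without it 1.502 in experiment 1 and 1.57 in experiment 2, whose deprived libraries are the close pairs. With library-size scaling it was 1.08 with glucose and 1.29 without, so IDH3B was higher under each scaling tried.

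IDH3A, the catalytic subunit, lies on chromosome 15 (78131498 to 78171945), and 38.8% of its exonic bases overlap ACSBG1 or CIB2, so that its counts are less certain. With glucose it was at 58.3, 55.3, and 54.6 CPM in KMT2D-WT cells and at 61.3, 69.8, 60.95, and 65.8 CPM in KMT2D-KO cells, in the library order used for IDH3B. Deprived of glucose, the values were 55.0, 50.1, and 50.1 CPM in KMT2D-WT cells and 70.3, 61.6, 65.8, and 60.8 CPM in KMT2D-KO cells. The groups did not overlap in either condition, but the step was small. IDH3A had a log2 fold change of 0.20 with glucose (SE 0.09, adjusted p = 0.136 by edgeR) and 0.29 without (SE 0.09, edgeR adjusted p = 0.0292). With library-size scaling the value without glucose was 0.03, and the call was lost (adjusted p = 0.745 from edgeR).

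IDH3G, the gamma subunit, lies on chromosome X (153785766 to 153794523, minus strand), and 10.2% of its exonic bases overlap SSR4. With glucose IDH3G was at 92.2, 53.9, and 65.8 CPM in KMT2D-WT cells and at 149, 103, 92.4, and 64.2 CPM in KMT2D-KO cells. Deprived of glucose, it was at 91.5, 57.4, and 59.3 CPM in KMT2D-WT cells and at 219.6, 128, 89.8, and 91.7 CPM in KMT2D-KO cells. The groups overlapped in both conditions, and the highest value of each KMT2D-KO group came from the KO1 library of experiment 1. Within each experiment of deprived cells, and in experiment 1 with glucose, both KMT2D-KO libraries lay above KMT2D-WT. IDH3G had a log2 fold change of 0.42 with glucose (SE 0.16, adjusted p = 0.0989 in edgeR) and 0.74 without (SE 0.21, adjusted p = 0.0224 by edgeR). Without TMM factors the latter was 0.48 and did not pass (adjusted p = 0.0724 from edgeR).

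Since a ratio within a library does not depend on the scaling of that library, the subunits were also compared per length as ratios of RPKM (CPM per kilobase of exonic length). With 38.8% of its exonic bases overlapped by other genes, IDH3A has a less certain level per length, and so has the size of the ratios to it. The ratio of IDH3B to IDH3A was 3.52 to 5.08 in the 3 KMT2D-WT libraries with glucose and 6.36 to 9.86 in the 4 KMT2D-KO libraries. Deprived of glucose, it was 4.39 to 5.38 in KMT2D-WT cells and 10.5 to 13.1 in KMT2D-KO cells. The groups did not overlap in either condition, and neither did those of IDH3B to IDH3G, at 1.23 to 1.44 against 1.60 to 2.99 with glucose and 1.29 to 1.56 against 1.58 to 3.06 without. For each of these 4 the exact two-sided permutation test gave p = 0.0571, the smallest that 3 against 4 libraries allow, and 0.114 after Benjamini-Hochberg adjustment over 8 tests. The ratio of IDH3G to IDH3A overlapped between the genotypes in both conditions (exact permutation p = 0.514 with glucose and 0.171 without). Within each experiment of deprived cells, however, both KMT2D-KO libraries lay above KMT2D-WT. In experiment 1 they were at 7.84 and 5.22 against 4.18, and in experiment 2 at 3.43 and 3.79 against 2.87 and 2.97. These permutation tests did not take experiment into account. IDH3B transcripts thus exceeded those of both partner subunits by more in KMT2D-KO than in KMT2D-WT libraries, and 3 against 4 libraries cannot reach the threshold in this test.

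**Figure D2:**
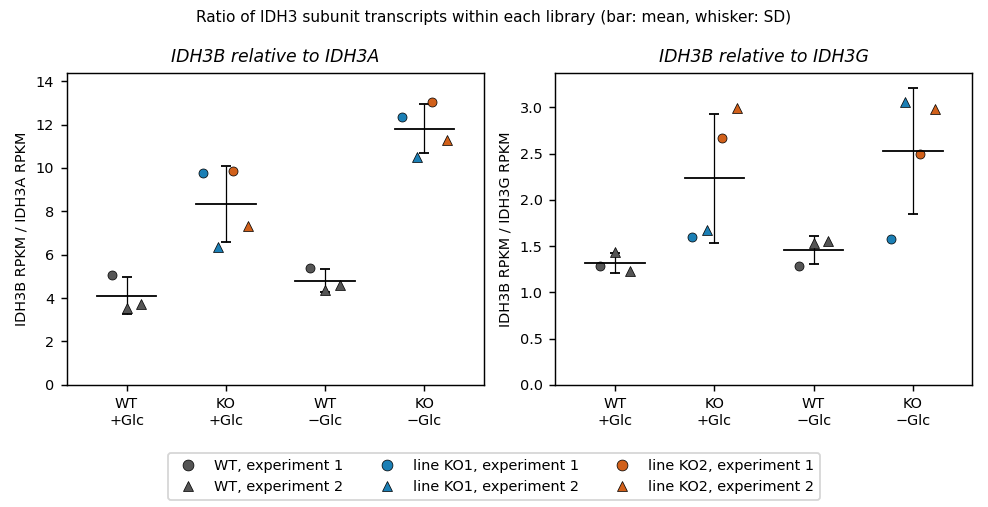
Ratio of IDH3B RPKM to IDH3A RPKM (left) and to IDH3G RPKM (right) in each library, by genotype and glucose. Colors give the line, symbols the experiment, bars the mean, and whiskers the SD. The ratio to IDH3A is at most 5.38 in KMT2D-WT libraries and at least 6.36 in KMT2D-KO libraries.

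The promoter windows of the 3 subunit genes are shown because the subunits form a single enzyme while their transcripts differed by unequal amounts, and that of CS because it had the next largest estimate. The windows were taken from RefSeq on GRCh38.p14 and hold 250 bases before and 50 after the annotated start. A window was found for 8 of the 9 genes. Each is written 5′ to 3′ on the strand of its gene. Capitals mark TGCGCA, the palindromic core of the motif of NRF1, and CCGGAAG or its reverse complement CTTCCGG, a core bound by ETS factors such as GABPA, both of which are known regulators of mitochondrial genes.
IDH3A, chr15:78149112-78149411, plus strand: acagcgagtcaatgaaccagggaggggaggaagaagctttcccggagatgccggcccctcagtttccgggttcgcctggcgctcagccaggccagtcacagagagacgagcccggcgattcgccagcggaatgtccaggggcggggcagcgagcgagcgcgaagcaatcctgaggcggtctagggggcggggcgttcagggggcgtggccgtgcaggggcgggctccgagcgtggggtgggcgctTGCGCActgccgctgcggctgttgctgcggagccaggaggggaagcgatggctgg
IDH3B, chr20:2664167-2664466, minus strand: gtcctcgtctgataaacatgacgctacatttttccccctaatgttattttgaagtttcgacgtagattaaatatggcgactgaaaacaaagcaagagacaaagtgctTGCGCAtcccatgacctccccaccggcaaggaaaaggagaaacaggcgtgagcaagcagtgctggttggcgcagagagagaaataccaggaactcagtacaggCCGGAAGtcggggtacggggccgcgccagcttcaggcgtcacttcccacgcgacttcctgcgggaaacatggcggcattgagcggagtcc
IDH3G, chrX:153794326-153794625, minus strand: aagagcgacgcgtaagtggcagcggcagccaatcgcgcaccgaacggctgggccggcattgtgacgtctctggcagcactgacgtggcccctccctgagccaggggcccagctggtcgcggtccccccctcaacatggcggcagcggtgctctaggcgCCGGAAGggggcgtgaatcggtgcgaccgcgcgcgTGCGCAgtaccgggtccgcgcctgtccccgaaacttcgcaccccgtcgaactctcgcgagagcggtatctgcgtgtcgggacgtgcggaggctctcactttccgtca
CS, chr12:56300281-56300580, minus strand: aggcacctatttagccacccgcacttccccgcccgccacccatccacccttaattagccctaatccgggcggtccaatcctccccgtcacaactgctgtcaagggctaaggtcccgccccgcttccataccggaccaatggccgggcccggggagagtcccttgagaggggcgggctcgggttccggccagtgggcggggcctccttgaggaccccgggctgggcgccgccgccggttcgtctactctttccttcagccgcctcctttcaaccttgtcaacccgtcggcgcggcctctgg

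The letters TGCGCA stood in the windows of IDH3A, IDH3B, and IDH3G, among the 8 windows found, and in 8.24% of 35116 human promoter windows of this length. They began 5, 143, and 57 bases before the start in IDH3A, IDH3B, and IDH3G. CCGGAAG, on either strand, stood in IDH3B, IDH3G, DLST, and MDH2 and in 10.3% of all windows. The CS window held neither, and held the GC box GGGCGG and the letters CCAAT, which 45% and 34.6% of all windows hold. AAGGTCA, the core bound by estrogen-related receptors, stood in SUCLA2 and in 3.92% of all windows, and the E-box CACGTG, which 7.26% hold, in no window of the 8. The motifs were chosen with the sequences in view, and a match describes the letters only. NRF1 and GABPA, named here with the motifs in view, were not called in either condition: NRF1 had a log2 fold change of −0.13 with glucose and −0.09 without (adjusted p = 0.523 and 0.577 from edgeR), and GABPA −0.05 and 0.17 (adjusted p = 0.820 and 0.225 from edgeR).

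Citrate synthase. CS, which opens the cycle, lies on chromosome 12 (56271699 to 56300391, minus strand). The pseudogenes CSP1 and CSP2 could share reads with it. With glucose CS was at 208, 226, and 230.4 CPM in KMT2D-WT cells and at 219.5, 296, 244, and 379.6 CPM in KMT2D-KO cells, in the order given above. The groups overlapped, but within each experiment both KMT2D-KO libraries lay above KMT2D-WT, and KO2 above KO1. On the log2 scale the change was 0.40 (SE 0.16, edgeR adjusted p = 0.0989). Deprived of glucose, CS was at 201, 205, and 192 CPM in KMT2D-WT cells and at 273, 359, 375, and 382 CPM in KMT2D-KO cells. Here the groups did not overlap, and the log2 fold change was 0.80 (SE 0.09, adjusted p = 6.40e-04 in edgeR). It was 0.54 with library-size scaling and still called (adjusted p = 0.00452 from edgeR).

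The oxoglutarate dehydrogenase complex. OGDH encodes its decarboxylating subunit on chromosome 7 (44606572 to 44709066), and DLST its succinyltransferase on chromosome 14 (74881891 to 74903743). With glucose OGDH was at 297, 306, and 291 CPM in KMT2D-WT cells and at 266, 193, 273, and 211 CPM in KMT2D-KO cells, all 4 below KMT2D-WT and KO2 below KO1. This gave a log2 fold change of −0.32 (SE 0.13, adjusted p = 0.0997 by edgeR). Deprived of glucose, OGDH was at 243, 222, and 222 CPM in KMT2D-WT cells and at 261, 139.9, 140.3, and 139.6 CPM in KMT2D-KO cells. The KO1 library of experiment 1 was above every KMT2D-WT library and the other 3 were below them. OGDH had a log2 fold change of −0.53 (SE 0.23, edgeR adjusted p = 0.0980), and without that KO1 library −0.74, which passed the test on 6 libraries of which 4 form the close pairs of experiment 2.

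DLST was at 285, 254, and 225 CPM in KMT2D-WT cells with glucose and at 250.3, 282, 225, and 263 CPM in KMT2D-KO cells, with full overlap and a log2 fold change of −0.02 (SE 0.09, adjusted p = 0.922 in edgeR). Deprived of glucose, DLST was at 302, 242, and 245 CPM in KMT2D-WT cells and at 319, 364, 321, and 319.9 CPM in KMT2D-KO cells. All 4 were above the 3 KMT2D-WT libraries, and the log2 fold change was 0.29 (SE 0.06, adjusted p = 0.00811 by edgeR). With library-size scaling it was 0.04 and was not called (adjusted p = 0.699 from edgeR). A pseudogene, DLSTP1, could share its reads. The ratio of DLST to OGDH RPKM overlapped between the genotypes in both conditions, with means of 1.28 and 0.979 in KMT2D-KO and KMT2D-WT cells with glucose and 2.41 and 1.31 without (two-sided exact permutation p = 0.286 and 0.114, adjusted 0.327 and 0.183 over 8 tests).

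The later steps. SUCLA2, the beta subunit of the ADP-forming succinyl-CoA ligase, lies on chromosome 13 (47745736 to 48037968, minus strand) and has 3 named pseudogenes. With glucose SUCLA2 was at 40.9 CPM in the KMT2D-WT library of experiment 1 and at 61.6 and 65.6 CPM in those of experiment 2, and at 46.4, 50.8, 55.4, and 73.4 CPM in KMT2D-KO cells. Deprived of glucose, it was at 37.4, 71.2, and 69.3 CPM in KMT2D-WT cells and at 41.2, 45.8, 91.01, and 91.1 CPM in KMT2D-KO cells. The groups overlapped, and only within each experiment of deprived cells and in experiment 1 with glucose did the KMT2D-KO libraries all lie above KMT2D-WT. On the log2 scale the change was 0.11 with glucose (SE 0.12, edgeR adjusted p = 0.546) and 0.29 without (SE 0.06, adjusted p = 0.00810 in edgeR).

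FH, or fumarase, lies on chromosome 1 (241497603 to 241519755, minus strand) and has a named pseudogene, FHP1. With glucose FH was at 131, 127, and 108 CPM in KMT2D-WT cells and at 134, 152, 122, and 145 CPM in KMT2D-KO cells, with overlap. Deprived of glucose, it was at 133, 142, and 142 CPM in KMT2D-WT cells and at 163, 151, 179.7, and 185 CPM in KMT2D-KO cells, with no overlap. This gave a log2 fold change of 0.17 (SE 0.10, adjusted p = 0.256 by edgeR) with glucose and 0.29 (SE 0.07, edgeR adjusted p = 0.0112) without.

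MDH2, the mitochondrial malate dehydrogenase that regenerates oxaloacetate, lies on chromosome 7 (76048051 to 76067508). With glucose MDH2 was at 259, 147, and 151 CPM in KMT2D-WT cells and at 198, 258, 104, and 153 CPM in KMT2D-KO cells. In both experiments KO1 was below KMT2D-WT while KO2 was close to it. The log2 fold change over both lines was −0.20 (SE 0.14, adjusted p = 0.362 in edgeR). Deprived of glucose, MDH2 was at 298, 175, and 171 CPM in KMT2D-WT cells and at 307, 327, 206, and 210.1 CPM in KMT2D-KO cells. Both libraries of each experiment were above KMT2D-WT, and the log2 fold change was 0.18 (SE 0.06, adjusted p = 0.0369 by edgeR). With library-size scaling it turned to −0.08, and those of SUCLA2 and FH fell to 0.04, none of them called (adjusted p = 0.310, 0.653, and 0.645 from edgeR).

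**Figure D3:**
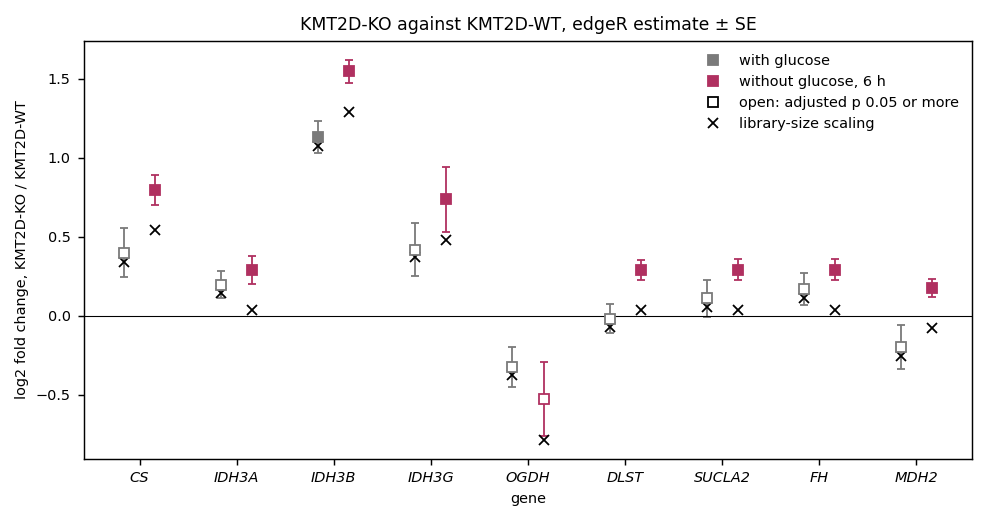
Log2 fold changes between KMT2D-KO and KMT2D-WT cells for the 9 cycle genes, with (grey) and without glucose (red). Squares are edgeR estimates with TMM scaling, whiskers are standard errors, open squares did not pass an adjusted p-value of 0.05, and crosses are the estimates with library-size scaling. IDH3B is at 1.13 and 1.55, and the crosses of IDH3A, DLST, SUCLA2, and FH without glucose lie at 0.03 to 0.04.

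Whether the KMT2D-KO effect differed between the glucose conditions was tested in a single fit of the 14 libraries. Of the 9 genes, IDH3B was called, with an effect larger by 0.44 on the log2 scale in deprived cells (SE 0.13, edgeR adjusted p = 0.0411). That is 1 higher of 9, against 4.73% of the 18678 genes tested, and 0 lower, against 6.54%. At an unadjusted p-value under 0.05 edgeR placed 3 higher (IDH3B, DLST, and MDH2) and 0 lower. DESeq2 with the same model called 2 higher and 0 lower, and 3473 of all 18678 genes, 52.0% of them higher. The median difference of the 9 was 0.33 beside 0.00 over all genes. These differences shared the shift of the scaling: with library-size scaling the median over all genes was −0.23, the share of higher genes among all called genes fell from 42.0% to 9.90%, and the IDH3B difference was 0.22 and not called (adjusted p = 0.218 from edgeR). The call of IDH3B was also lost when any of 9 of the 14 libraries was left out (adjusted p from 0.0757 to 0.121 from edgeR), with estimates between 0.36 and 0.49. The lines of the close KMT2D-KO pair are in doubt, so the mix of KO1 and KO2 may differ between the glucose conditions. Its part in this difference was not tested.

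The effect of glucose deprivation itself was fitted in each genotype, with a caution for experiment 2, where the libraries with glucose were counted in paired mode and those without in single mode, so that the counting and the glucose cannot be told apart there. In KMT2D-WT cells OGDH fell, by 0.37 on the log2 scale (SE 0.06, adjusted p = 0.0237 in edgeR), and MDH2 rose by 0.22 (SE 0.04, adjusted p = 0.0352 by edgeR). This makes 1 of 9 lower, against 7.58% of the 17227 genes tested, and 1 of 9 higher, against 7.15%. The OGDH step is seen in every KMT2D-WT library, 291 to 306 CPM with and 222 to 243 CPM without glucose. With the close pair of deprived KMT2D-WT libraries summed, however, 0 of the 9 and 1 of all 20612 genes were called. In KMT2D-KO cells IDH3B (0.50, SE 0.11), DLST (0.35, SE 0.09), and MDH2 (0.56, SE 0.14) rose (adjusted p = 0.0149, 0.0225, and 0.0238 from edgeR's quasi-likelihood test). That is 3 of 9 higher, against 14% of the 16057 genes tested, and 0 lower, against 16% (also 0 lower at an unadjusted p-value under 0.05 and by DESeq2 with the same model). Their values for all KMT2D-KO libraries stand above: those of DLST did not overlap between the glucose conditions, those of IDH3B met at 259 CPM, and those of MDH2 overlapped. In KMT2D-KO cells the mix of lines may also differ between the glucose conditions, and its part was not tested.

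In experiment 1 alone, where the counting was the same, all 6 libraries were fitted with line and glucose as factors, and 0 of the 9 passed edgeR's test. MDH2 (0.38), DLST (0.25), IDH3B (0.24), and OGDH (−0.28) kept their directions (adjusted p = 0.233, 0.417, 0.471, and 0.383 from edgeR). With library-size scaling 0 of the 9 were called in KMT2D-KO cells, where the share of higher genes among all called genes fell from 46.5% to 20.5%, and OGDH and MDH2 remained called in KMT2D-WT cells. Over all genes this scaling called 4898 of 16057 in KMT2D-KO and 2149 of 17227 in KMT2D-WT cells. Left out together, the close pair of experiment 2 also left 0 of the 9 called in KMT2D-KO cells, with IDH3B at 0.35.

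The lines KO1 and KO2 were compared in cells kept in glucose, where the labels are not in doubt. Each line was made with its own guide, so line and guide cannot be told apart. In KO2, CS (0.54, SE 0.08), MDH2 (0.48, SE 0.08), and IDH3B (0.26, SE 0.08) were higher than in KO1, while IDH3G (−0.53, SE 0.10) and OGDH (−0.42, SE 0.08) were lower. Their adjusted p-values were 2.22e-04, 6.24e-04, 0.0312, 0.00145, and 0.00158 from edgeR's quasi-likelihood test. That is 3 of 9 higher, against 7.37% of the 20423 genes tested, and 2 of 9 lower, against 7.89%. The value of each line was read from 2 libraries, and KO2 stood above KO1 in both experiments for CS, MDH2, and IDH3B and below it in both for IDH3G and OGDH. With library-size scaling IDH3B no longer passed (0.19, adjusted p = 0.118 from edgeR), and the share of higher genes among all called genes fell from 48.3% to 35.0%. KO2 also differed from KO1 in 5 of the 6 squamous markers tested, all higher, and whether this bears on the cycle genes was not tested.

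The order of the 9 genes was also read per length, as mean RPKM in each group. In KMT2D-WT cells with glucose OGDH, FH, DLST, and MDH2 had the highest levels, at a mean of 57.2 ± 1.45, 56.996 ± 5.85, 56.0 ± 6.64, and 51.0 ± 17.5 RPKM (SD, n = 3). These 4 overlapped from neighbour to neighbour. CS (34.6 ± 1.87), IDH3B (33.9 ± 8.26), and IDH3G (25.99 ± 7.21) followed and overlapped likewise. IDH3A (8.22 ± 0.291) and SUCLA2 (6.31 ± 1.49) were lowest and did not overlap. The level of IDH3A per length is less certain because of its overlapped exons. In KMT2D-KO cells with glucose IDH3B (79.1 ± 19.3 RPKM, SD, n = 4) ranked first and overlapped FH (64.7 ± 5.95), and OGDH (45.3 ± 7.64) ranked 5. In deprived KMT2D-WT cells FH (65.2 ± 2.56), MDH2 (58.9 ± 19.8), and DLST (57.8 ± 7.43) led, OGDH (43.9 ± 2.36) ranked 4, and IDH3B (36.5 ± 6.01) ranked 5. In deprived KMT2D-KO cells IDH3B was highest, at 112 ± 13.1 RPKM (SD, n = 4), above FH (79.5 ± 7.33), DLST (72.8 ± 4.80), and MDH2 (72.1 ± 17.5), and it did not overlap its neighbour FH. OGDH stood at rank 7 there, at 32.7 ± 11.6 RPKM. Within each glucose condition IDH3B thus stood higher in the order of KMT2D-KO than of KMT2D-WT cells and OGDH lower, and without glucose DLST and MDH2, which overlapped, changed places. Ranked by TPM, the order of the group means was the same in all 4 groups. RPKM and TPM of a library differ by a factor common to all genes, so only the weight of each library in the mean could change this order.

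The 9 genes varied in partial concert. After centring within each glucose condition and experiment, the 36 pairs had a median Pearson correlation of 0.63 over the 14 libraries, which share genotype and scaling, and 27 pairs were positive. IDH3A and IDH3B had the highest value (0.93). The negative extreme was CS with OGDH (−0.91), and OGDH was negative with each of the other 8 genes. The genes whose centred profile was most like the mean of the 9, among 18669 others, were KARS1 and GAPDH (both 0.995) and PRMT1, THAP4, and SEC13 (all 0.994). These values describe the libraries and carry no test.

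Other subunits of the cycle. A further 8 genes of the cycle are reported: OGDHL (a paralog of OGDH), DLD (the dehydrogenase shared with the pyruvate complex), SUCLG1 and SUCLG2 (the other succinyl-CoA ligase subunits), and SDHA to SDHD (succinate dehydrogenase). With glucose 4 of the 8 were higher in KMT2D-KO cells and 4 did not pass (median log2 fold change 0.41), against 13% of all genes tested higher and 11.7% lower. OGDHL rose by 1.40, from 4.29 to 7.26 CPM in KMT2D-WT cells to 10.6 to 22.0 CPM (edgeR adjusted p = 0.00186). SDHD (0.59), SUCLG1 (0.53), and SDHC (0.38) followed (adjusted p = 0.00438, 0.0175, and 0.0414 from edgeR).

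Deprived of glucose, 6 of these 8 were higher, with a median log2 fold change of 0.53, against 25.9% of all genes tested higher and 24.9% lower. OGDHL (1.80) and SUCLG1 (0.85) had the largest estimates (adjusted p = 1.89e-04 and 9.17e-05 from edgeR's quasi-likelihood test). SDHD (0.73), SDHB (0.57), SUCLG2 (0.50), and SDHC (0.27) also rose, while SDHA had 0.16 and DLD −0.01 (adjusted p = 0.180 and 0.924 from edgeR). With library-size scaling 3 of the 8 were higher with glucose (all but SDHC of the 4). Without glucose 4 were higher (OGDHL, SUCLG1, SDHB, and SDHD) and 1 was lower (DLD, −0.26, adjusted p = 0.0407 from edgeR). Over all genes this scaling called 5117 of 20423 with glucose (45.4% of them higher) and 9021 of 16782 without (30.2% higher). Between glucose conditions 0 of the 8 effects differed by edgeR (3 at an unadjusted p-value under 0.05). Of all 18678 genes tested for this difference, 4.73% were called higher and 6.54% lower.

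**Figure D4:**
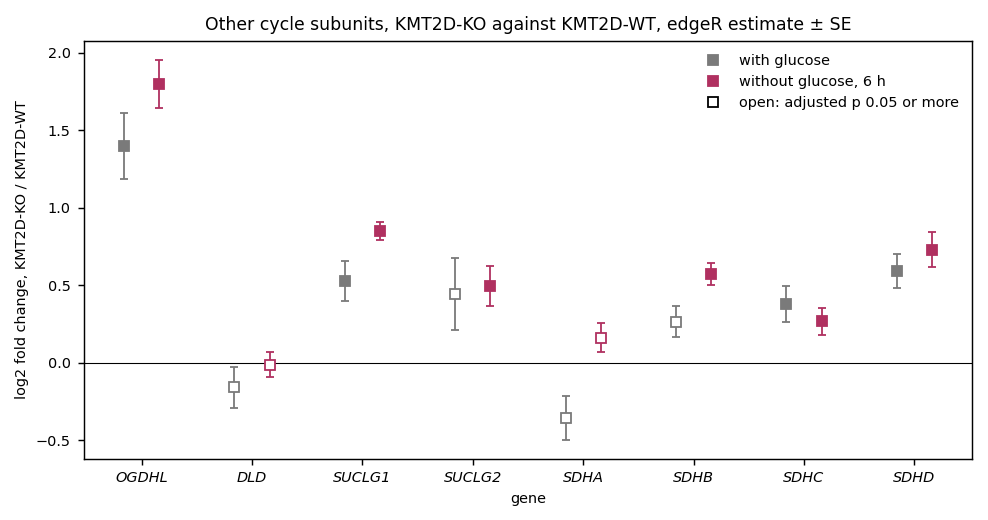
Log2 fold changes between KMT2D-KO and KMT2D-WT cells for 8 further cycle subunits, with (grey) and without glucose (red). Squares are edgeR estimates, whiskers are standard errors, and open squares did not pass an adjusted p-value of 0.05. OGDHL has the largest value in both conditions, at 1.40 and 1.80, and DLD did not pass in either.

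Genes around the cycle gave mixed results. Of all genes tested, 13% were higher and 11.7% lower in KMT2D-KO cells with glucose, and 25.9% and 24.9% without. Among 6 cytosolic or NADP-linked counterparts (ACO1, IDH1, IDH2, MDH1, ME1, and ACLY), MDH1 alone was called, at 0.30 in deprived cells (adjusted p = 0.00672 in edgeR). Of 5 enzymes of entry and exit, PCK2, the mitochondrial phosphoenolpyruvate carboxykinase, rose in both conditions (0.63 and 0.67, adjusted p = 0.0196 and 4.38e-04 from edgeR). In deprived cells 3 of the 5 rose. Of 5 carriers, SLC25A1, which exports citrate to the cytosol, was lower with glucose by 0.94 and without by 0.50 on the log2 scale. Both passed edgeR's test (adjusted p = 1.01e-04 and 0.00489), and so did their difference (0.46, adjusted p = 0.0283 from edgeR). In deprived cells 3 of the 5 carriers were higher, SLC25A10 by the most (0.57, adjusted p = 0.00711 from edgeR). Of 4 assembly factors of succinate dehydrogenase, SDHAF4 was lower in deprived cells, at −1.42 (adjusted p = 0.0107 from edgeR).

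In deprived cells these lists too depended on the scaling. With library totals alone 0 were higher and 1 lower among the counterparts and among the carriers. Among the entry and exit enzymes 1 was higher and 1 lower, and 2 assembly factors were lower. Over all genes this scaling called 9021 of 16782, with 30.2% of these higher and the rest lower.

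For the neighbouring pathway, 10 of 12 glycolysis enzymes tested were higher and 1 was lower in deprived KMT2D-KO cells (median 0.52), where 25.9% of all genes were higher and 24.9% lower. With library-size scaling 6 were higher and 1 was lower, beside 9021 of all 16782 genes called, 30.2% of them higher. With glucose 3 of 13 were higher and 1 was lower (median 0.17), beside 13% and 11.7% of all genes. Of 9 genes of the pyruvate dehydrogenase complex, its kinases, and phosphatases tested, 5 were higher and 1 was lower without glucose (median 0.44), and 1 was higher and 1 lower with it (median 0.17), beside the same shares of all genes. With library-size scaling 3 were higher and 2 lower without glucose, and 1 was higher and 1 lower with it. Over all genes this scaling called the same 9021 without glucose and 5117 of 20423 with it, 45.4% of the latter higher. Among 6 regulators of mitochondrial genes tested, PPARGC1B, a coactivator of estrogen-related receptors, was higher with glucose (1.46, adjusted p = 6.66e-05 by edgeR), and in deprived cells had 0.58 (adjusted p = 0.0783 from edgeR). With library-size scaling 0 regulators were higher and 2 lower in deprived cells, beside the calls over all genes given above. The libraries are of a bulk culture, in which a change in the share of cells that express a gene and a change in RNA per cell cannot be told apart. In deprived KMT2D-KO cells 5 of the 7 squamous markers were higher (3 with library-size scaling), beside 25.9% of all genes, and their sum was 675 to 2226 CPM against 553 to 639 CPM in KMT2D-WT libraries. With glucose 1 of 6 tested was lower, KRT14 (−1.74, edgeR adjusted p = 0.00627), and the sums were 198 to 753 CPM against 443 to 566 CPM. Their part in the cycle genes' differences was not tested.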

How the data were processed

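The authors aligned reads to GRCh38 with HISAT2 and deposited raw counts per gene name from featureCounts 2.0.3 (Ensembl 102 annotation, unstranded, primary alignments). Groups were taken from the sample labels. Counts were fitted in edgeR 4.0.16 (R 4.3.3, limma 3.58.1) with filterByExpr at a minimum count of 10, TMM scaling, and the quasi-likelihood test, with Benjamini-Hochberg adjustment at 0.05. Since this test reports no standard error, each SE of an edgeR estimate was derived from it. It is the absolute log2 fold change divided by the square root of the F statistic. Each glucose condition was fitted alone with experiment as a covariate. The difference between conditions used all 14 libraries, with experiment nested in glucose. The effect of glucose was fitted within each genotype, and the lines within cells kept in glucose. Replicate numbers mark experiments only in part, so experiment is the block. The differences between experiments correlated between genotypes (r = 0.899 with glucose and 0.727 without, over 18678 genes).

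The members and gene lists were chosen with earlier results of these data known. The text names all members, KMT2D, the other cycle subunits (8 genes, since a gene of the list as first fixed is not reported here), and from the remaining lists the called gene with the largest change in each direction. Glycolysis, pyruvate dehydrogenase, and marker lists are given as counts. Alternatives were DESeq2 1.42.0, no experiment term, RLE factors, no filter, a length offset, single experiments, close pairs summed, halved counts where both mates were counted, and each library left out. Library-size scaling and leaving out the close KMT2D-KO pair were added after seeing the data. On simulated counts edgeR found 85% of 2-fold changes for the genotypes with glucose (19660 genes, 10.9% of calls false) and 75% without (16468 genes, 5.88% false). For the difference between conditions it found 33% (18247 genes). Of 1.5-fold changes edgeR found 30% for the genotypes with glucose, 21% without, and 4% for the difference. In DESeq2 19.2% of calls on the simulated counts were false with glucose and 26.1% without. Libraries were simulated independently of each other, with 200 well-counted genes changed, so the close pairs of deprived libraries were not reproduced. These shares therefore do not measure the false calls among the deprived libraries.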

Additional observations from a re-analysis of the deposited data

Results flagged for a closer look

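In the 18 groups of 4 KMT2D-KO libraries examined for the cycle genes, 2 held a library far from the other 3 by Dixon's criterion, which by its construction marks about 1 in 20 groups by chance. OGDH in deprived KMT2D-KO cells was at 261 CPM in the KO1 library of experiment 1, with the others at 139.6 to 140.3 CPM. DLST in deprived KMT2D-KO cells was at 364 CPM in the KO2 library of experiment 1, with the others at 319 to 321 CPM. In both, 2 of the other 3 libraries are the close pair. The KMT2D-KO effect on IDH3B was larger by 0.44 on the log2 scale in deprived cells than in cells kept in glucose, by the test of the difference. The mix of lines in the deprived cells is in doubt.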

How the results depend on the processing

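Of the cycle genes called in KMT2D-KO against KMT2D-WT cells, 1 with glucose became 4 with no filter, and 8 without glucose became 3 in DESeq2 without experiment, 2 with no replicate block, 3 with library-size scaling, 2 with close pairs summed, and 0 in experiment 1 alone or without both close KMT2D-KO libraries. The 1 called difference between conditions became 2 in DESeq2 with the same model, and 0 in DESeq2 without experiment, with no replicate block, with library-size scaling, with no filter, with close pairs summed, and without both close libraries. For glucose in KMT2D-WT cells, 2 became 1 in DESeq2 without experiment, 5 in experiment 2 alone, and 0 with no replicate block, with close pairs summed, and in experiment 1 alone. In KMT2D-KO cells, 3 became 1 in DESeq2 without experiment and with close pairs summed, 6 in experiment 2 alone, and 0 with no replicate block, with library-size scaling, without both close libraries, and in experiment 1 alone. Between lines, 5 became 1 in DESeq2 without experiment and 0 with no replicate block. Leaving out single libraries gave 1 to 3, 2 to 9, 0 to 2, 0 to 5, 0 to 4, and 3 to 8 calls for the 6 comparisons in the order of the report. Over all genes, with no replicate block, 971 genes were called in place of 5042 with glucose, 3659 in place of 8521 without, 70 in place of 2105 for the difference, 2 in place of 2536 and 1465 in place of 4813 for glucose in KMT2D-WT and KMT2D-KO cells, and 10 in place of 3116 between lines.

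Values near 0 changed sign. With glucose DLST was 0.024 in DESeq2 without experiment, 0.0078 with no replicate block, 0.016 in experiment 2 alone, and −0.084 to 0.029 without single libraries. MDH2 without glucose was −0.078 with library-size scaling. For the difference, library-size scaling gave IDH3A −0.11, SUCLA2 −0.017, and FH −0.076, and OGDH was 0.15 without both close libraries. For glucose in KMT2D-WT cells IDH3G was 0.015 in both DESeq2 models and with RLE factors, 0.0011 with no filter, and −0.098 to 0.063 without single libraries, and experiment 1 alone gave CS 0.16, IDH3G 0.27, and SUCLA2 −0.17. In KMT2D-KO cells IDH3A was 0.052 and 0.053 in the DESeq2 models, 0.053 with RLE factors, 0.0086 with no filter, 0.13 with the length offset, 0.0078 with close pairs summed, and −0.049 to 0.036 without single libraries. SUCLA2 there was −0.048 with library-size scaling, −0.19 without both close libraries, −0.20 in experiment 1 alone, and −0.17 with both genotypes of experiment 1. The causes were not tested. Each member had 657 or more counts in every library.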
